A study of Mus musculus with 12 samples.

Results

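Autosomal genes whose RNA differed between female and male mouse livers were described in animals without adrenal glands, which therefore made no adrenal glucocorticoid and were given none. The 6 livers came from adrenalectomized C57BL/6 mice of 11 weeks, 3 males and 3 females in diestrous 1, and each animal received phosphate buffered saline (PBS) as vehicle 6 h before the liver was taken. Another 6 adrenalectomized mice, 3 of each sex and of the same strain and age, received dexamethasone, a synthetic glucocorticoid, at 1 mg/kg into the peritoneum on the same day. All 4 groups lacked adrenals, so no array gives the level of a gene in an animal with them. Each array carried Cy3-labelled RNA from 1 liver. The labels do not say how animals were assigned to groups. The p-values rest on the spread between the 3 animals within a group, pooled over all 4 groups.

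An autosomal gene counted as a member when its probe lay well above background on all 3 PBS arrays of at least 1 sex. Of 19340 genes tested in the series, 17882 were members and 14446 of these had a usable gene symbol. Another 487 autosomal genes were above background only under dexamethasone, 617 genes lay on the X chromosome, 7 on the Y chromosome and 347 had no place on an assembled chromosome. Signals are given on a common scale, on which the 75th percentile of every array is 846 intensity units. Differences are female minus male on the log2 scale, with the standard error (SE) of the limma fit, and a gene is called when its Benjamini-Hochberg adjusted p over all 19340 genes is at most 0.05.

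The liver of rodents is among the most sexually dimorphic organs outside the reproductive tract. Pituitary growth hormone is released in separated pulses in males and more continuously in females, and hepatocytes read that pattern through the growth hormone receptor and the transcription factor STAT5B. BCL6, high in male liver, and CUX2, high in female liver, are repressors that reinforce the pattern. Its best known outputs are cytochrome P450s, sulfotransferases, flavin monooxygenases and major urinary proteins, and glucocorticoids act on the same hepatocytes through the glucocorticoid receptor.

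The arrays carried the labelled sex. Xist, transcribed from the inactive X chromosome, ranged from 17990 to 25540 in the female PBS livers and from 1.75 to 2.16 in the males, and the 4 Y-linked genes checked went the other way. The summed signal of the 11 hepatocyte markers tested was 1640000 to 1669000 in males and 1586000 to 1728000 in females. Of these markers 0 were called between the sexes, against 1.95% of all members, a share at which 0 calls among 11 says little. Their median difference was -0.018, with a range from -0.31 to 0.20. The 75th percentile before scaling was 821 to 883 on the male PBS arrays and 822 to 1251 on the female ones. The share of spots well above background was 70.9 to 71.0% in males and 67.7 to 68.6% in females, so the female arrays detected fewer spots. Each of the 3 slides held 1 male and 1 female PBS array, but all 3 male arrays sat in position 1 and the females in positions 2, 3 and 4, so the sex and the position on the slide cannot be told apart.

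The sexes differed at 349 autosomal genes, 1.95% of the members. Of these, 116 were higher in females (0.649%) and 233 were higher in males (1.3%). Differences of at least 2-fold were found at 92 female-higher and 190 male-higher genes, and of at least 4-fold at 39 and 76. The median size of a called difference was 1.58 on the log2 scale, the smallest was 0.55, and the median difference over all members was -0.05. At all 349 genes the female and male arrays did not overlap, whereas 20.4% of all members had arrays that did not overlap. With 1 male and 1 female array per slide, non-overlap alone gives a difference 1 sign on all 3 slides. The common sign at the 349 genes therefore adds nothing to it. At an unadjusted p of 0.05, 2462 members passed.

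The counts moved with the arrays and the settings used. Fitted alone, without the spread of the dexamethasone arrays, the 6 PBS arrays gave 79 female-higher and 122 male-higher genes. That fit kept 169 of the 349 calls. Without male replicate 2 the called genes fell to 47 female-higher and 95 male-higher, and without male replicate 3 to 55 and 105. Without female replicate 1 the female-higher count was 72. With normexp background correction the counts were 44 and 40, so that the surplus of male-higher genes was lost. Male-higher genes lay at lower signals: the median level in males was -1.48 relative to the 75th percentile (log2), against 0.46 for female-higher genes in females. Of 3 equal classes of members by brightness, the dimmest held 113 of the 233 male-higher and 34 of the 116 female-higher calls, and its median difference was -0.13. The part of the lower detection on the female arrays in the male-higher count was not tested.

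**Figure D1:**
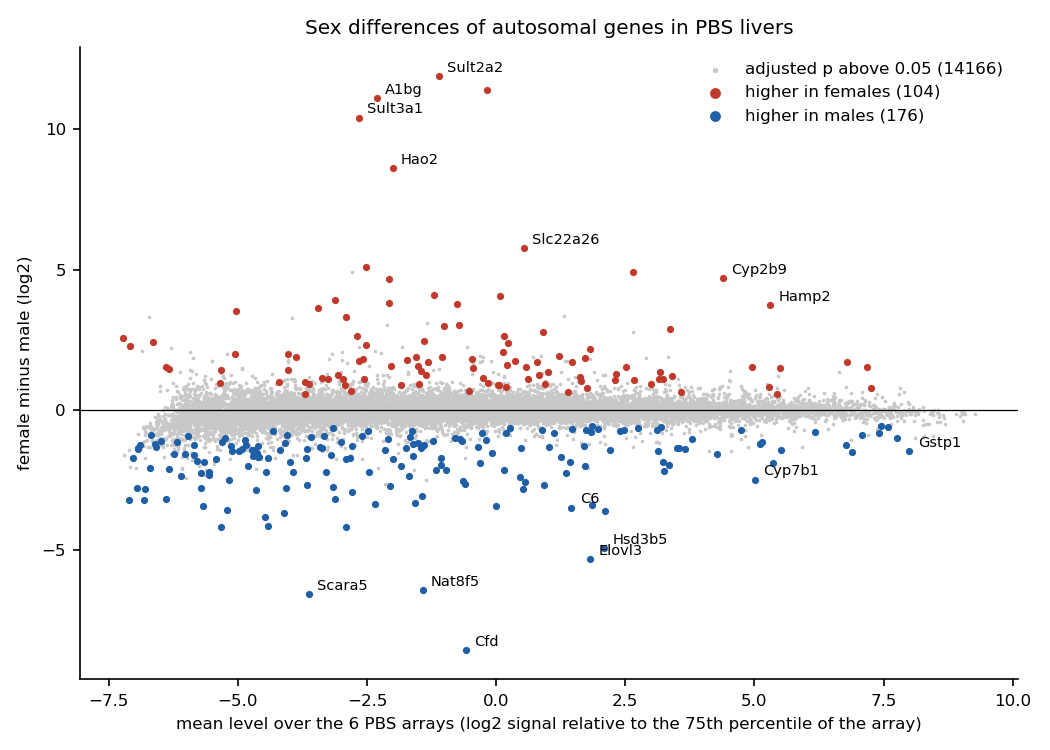
Sex difference of each autosomal gene with a symbol (vertical axis, log2, female minus male) against its mean level over the 6 PBS arrays (horizontal axis, log2 relative to the 75th percentile). Red points are the 104 called genes with a symbol that were higher in females, blue points the 176 higher in males, and 5 female-higher genes stand above 8.

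The largest female-higher genes were close to a presence or absence pattern. Sult2a2, a sulfotransferase of bile acids and hydroxysteroids, gave signals of 44260, 8937 and 36040 in the 3 females and 2.86, 9.45 and 9.26 in the 3 males. Its difference was 11.91 (SE 0.67, adjusted p = 7.79e-06), and only 2 of the 3 male arrays were above background. Its other probe differed by 7.38, with 0 of 3 male arrays above background. The 2 groups were far apart, with female replicate 2 the lowest of the females.

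A1bg, which encodes a plasma glycoprotein of the immunoglobulin family, gave 11940, 14190 and 2997 in females and was not well above background in any male. It was at least 985-fold higher in females (adjusted p = 1.13e-04). Sult3a1, a sulfotransferase that acts on amines, gave 4145, 15970 and 1831 in females and was likewise not well above background in males, and was at least 611-fold higher in females (adjusted p = 4.56e-05). These bounds set the dim sex at the lowest signal called above background on its arrays. Of the 116 female-higher genes, 9 were above background on no male array, and of the 233 male-higher genes, 32 were above background on no female array.

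Hao2, a peroxisomal oxidase of 2-hydroxy acids, gave 6033, 1602 and 7615 in females and 58.6, 6.16 and 3.32 in males (difference 8.62, SE 1.14, adjusted p = 0.00296). Only male replicate 1 was above background, so the size of the difference rests largely on male values at background. Slc22a26, an organic anion transporter, gave 10430, 11510 and 6167 in females and 711, 148 and 44.1 in males, a difference of 5.76 (SE 1.08, adjusted p = 0.0231). Its males spread widely, and its call was kept in only 1 of the 6 fits that left out 1 PBS array, with an adjusted p of up to 0.103 without male replicate 2. The probes of these genes lie, in the mm7 build of the array design, at chr7:12414651-12414710 for Sult2a2, chr15:60987170-60987229 for A1bg, chr10:33660082-33660141 for Sult3a1, chr3:98670176-98670235 for Hao2 and chr19:7601848-7601907 for Slc22a26.

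The largest male-higher genes had other roles. Cfd, adipsin or complement factor D, gave 27120, 11030 and 4409 in males and 48.6, 18.6 and 26.2 in females, a difference of -8.58 (SE 1.39, adjusted p = 0.0101). All 6 arrays detected it, and its adjusted p was 0.0502 without male replicate 2. Adipocytes also make Cfd. Of the 10 fat markers listed, Adipoq, Lep, Plin1, Retn, Ucp1 and Slc7a10 were not above background on all 3 PBS arrays of either sex. Of the other fat markers, Fabp4 differed by 0.27 and Cidea by -0.60, Car3 by -0.92, and none of the 3 was called. The summed signal of the 4 fat markers tested, Cfd included, was 165700 to 219300 in males and 74480 to 121800 in females. Cfd gave at most 27120 of it, so most of the sum came from the 3 markers that were not called. The part of fat tissue in these signals was not tested.

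Scara5, a ferritin receptor, gave 235, 934 and 1355 in males and 6.41, 17.1 and 3.12 in females, where 1 of 3 arrays detected it (difference -6.58, SE 0.65, adjusted p = 4.75e-04). Nat8f5, of the N-acetyltransferase 8 family, gave 2483, 3044 and 3362 in males and 13.3, 46.7 and 62.3 in females, a difference of -6.44 (SE 0.73, adjusted p = 0.00110). Its neighbour Nat8 gave 10070, 13600 and 14980 in males and 1044, 883 and 1192 in females, a difference of -3.62 (SE 0.21, adjusted p = 7.86e-06). Like all called genes, the 3 did not overlap between the sexes, and Nat8 had the narrowest spread of the 3.

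Elovl3, an elongase of very long chain fatty acids, gave 16710, 21260 and 19060 in males and 569, 548 and 334 in females (difference -5.33, SE 0.39, adjusted p = 7.01e-05). Hsd3b5, a steroid dehydrogenase of male mouse liver, gave 13840, 20100 and 28390 in males and 359, 3939 and 191 in females. Female replicate 2 stood far above the other two females for Hsd3b5, and the difference of -4.95 (SE 1.03) had an adjusted p of 0.0367. That call was kept in 1 of the 6 fits that left out an array, with an adjusted p of up to 0.146 without male replicate 2. Asns, asparagine synthetase, gave 2429, 3847 and 2241 in males and 300, 240 and 231 in females, a difference of -3.43 (SE 0.30, adjusted p = 2.05e-04).

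Several more of the 15 largest male-higher genes were dim in females. Tff3, a mucosal trefoil peptide, ranged from 448 to 507 in males and from 18.0 to 35.7 in females (difference -4.19, SE 0.65, adjusted p = 0.00844). Omd, Meig1 and Fam183b differed by -4.17, -4.16 and -3.82, with 1, 1 and 2 of the 3 female arrays above background. Usp17la, of a family of near-identical deubiquitinase genes that a probe cannot separate with certainty, was at least 7.83-fold higher in males, and the calpain Capn8 at least 5.66-fold. Treh, trehalase, differed by -3.69 (SE 0.68, adjusted p = 0.0201), and its adjusted p reached 0.103 without male replicate 2.

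Further female-higher genes among the 15 largest were Tafa2, Aldh3b3, Pnpla3, Acot3, Atp6v0d2, Akr1b7 and 9030619P08Rik. Pnpla3, a lipid droplet lipase, gave 622, 1419 and 4041 in females and 109, 57.2 and 114 in males (difference 4.10, SE 0.77, adjusted p = 0.0236). Acot3, a peroxisomal acyl-CoA thioesterase, gave 3607, 4468 and 2963 in females and 445, 125 and 190 in males (difference 4.05, SE 0.80, adjusted p = 0.0295). Atp6v0d2, a proton pump subunit, gave 675, 135 and 572 in females and 72.4, 14.4 and 15.02 in males (difference 3.90, SE 0.78, adjusted p = 0.0302). Like all called genes, these 3 did not overlap between the sexes. Their calls were kept in only 2, 1 and 2 of the 6 fits that left out an array. The adjusted p-values rose to 0.122, 0.149 and 0.151 without male replicate 2. With slide as a block the adjusted p of Atp6v0d2 was 0.0507. The calls of Tafa2, Aldh3b3, Akr1b7 and 9030619P08Rik, with differences of 5.09, 4.66, 3.82 and 3.76, were kept in all 6.

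**Figure D2:**
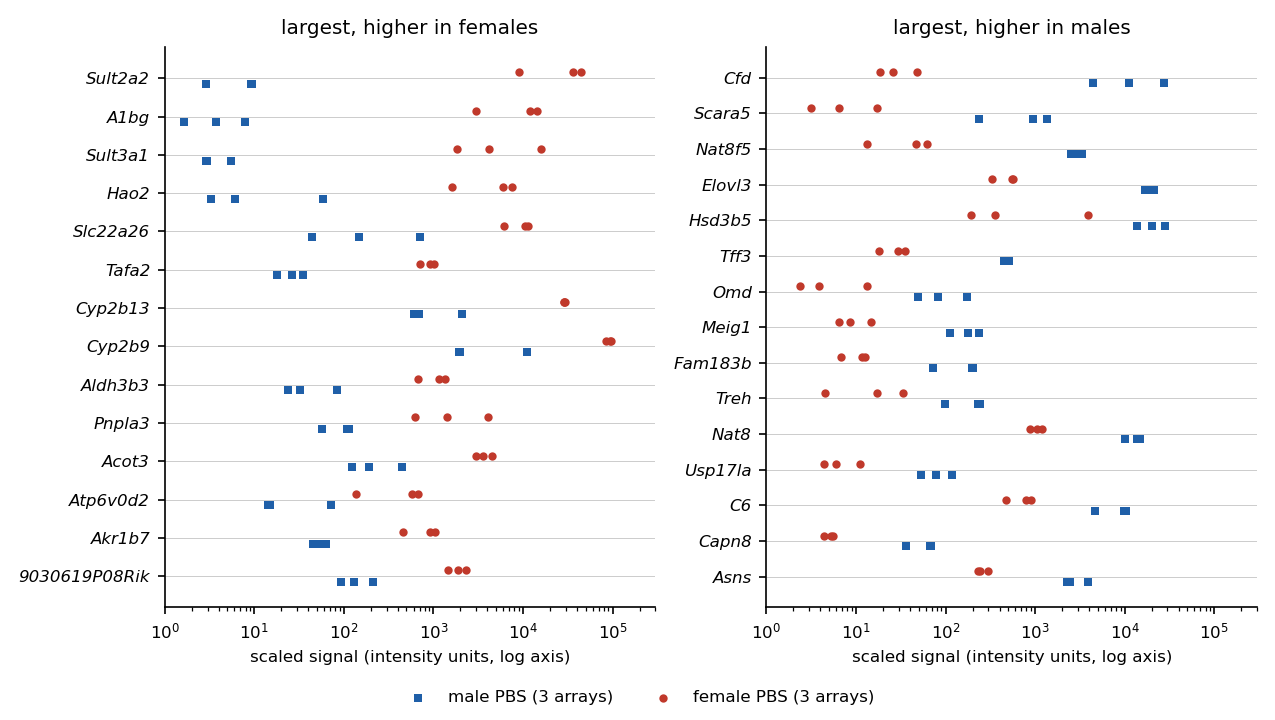
Scaled signal (horizontal log axis, intensity units) of the largest called genes in each direction named in the text, with each of the 3 male arrays as a blue square and each of the 3 female arrays as a red circle. The sexes do not overlap at any gene shown, as at all 349 called genes. Male replicate 1 is the rightmost male point for Hao2 (58.6) and Slc22a26 (711).

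Male replicate 1 was the male array nearest to the females in both directions. Among the 116 female-higher genes it was the highest of the 3 males at 74 (63.8%), against 32.8% of all members. Among the 233 male-higher genes it was the lowest male at 149 (63.9%), against 36.6% of all members. Cyp2b9 showed this plainly, with 11000 in male replicate 1 and 2001 and 1925 in the other males. Xist and the Y-linked genes were at male levels on that array. Without it, 323 genes were called and 272 of the 349 were kept. No female array stood out in this way in both directions. Over all members the females were the more variable sex, with a median SD of 0.24 against 0.17 in males (log2) and a larger SD at 66.7% of members. Among the called genes the medians were 0.30 in males and 0.27 in females for female-higher genes, and 0.29 and 0.28 for male-higher genes.

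**Figure D3:**
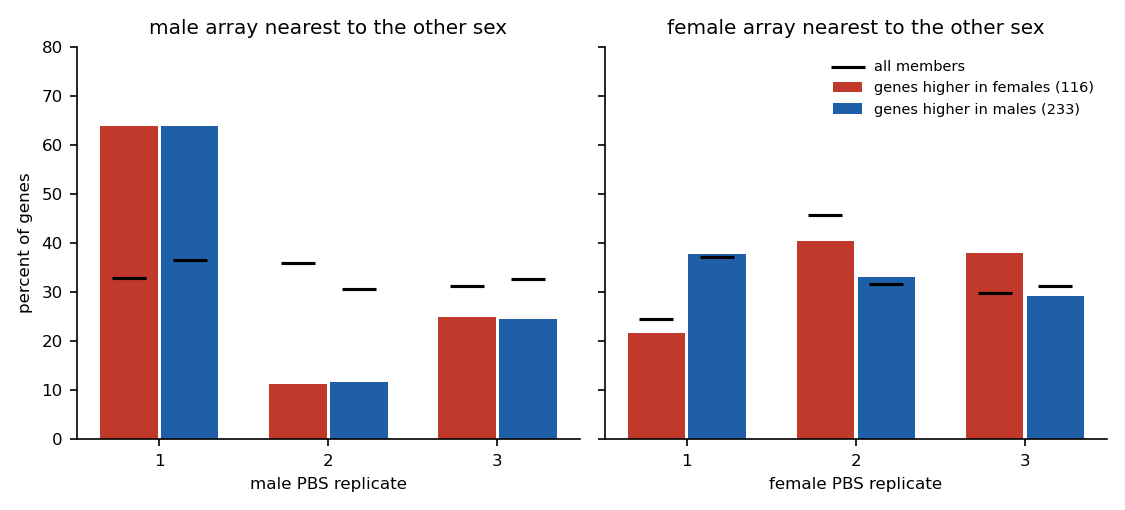
Percent of called genes (vertical axis) at which each replicate (horizontal axis) was, of its own sex, the array nearest to the other sex, for the 116 female-higher (red) and 233 male-higher (blue) genes; black marks give the same percent over all 17882 members. Male replicate 1 reaches 63.8 and 63.9%, above its marks of 32.8 and 36.6%, and no female bar exceeds 40.5%.

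The stretch just upstream of a gene is where growth hormone and glucocorticoid dependent factors can bind, so 3 motifs were searched in the 250 bases before the RefSeq start of each gene (GRCm38.p6), on both strands. A promoter entry was matched by symbol for 11475 members, for 74 female-higher and for 133 male-higher genes. The STAT5 motif TTCNNNGAA was in 6.76% of female-higher, 8.27% of male-higher and 6.29% of all member promoters. The letters AGAACA, the core of a glucocorticoid response element, were in 9.46, 10.5 and 11.5%, and the HNF6 core ATTGAT in 6.76, 7.52 and 4.21%. These shares count 5 and 11, 7 and 14, and 5 and 10 promoters of called genes, and no test was made. A match is a run of letters and not a bound site.

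Of the 30 largest genes, 23 had an entry and 4 of these held a STAT5 match, and their 250 bases are printed to show where it lies. They are A1bg (chr15:60921271-60921520, minus strand), Sult3a1 (chr10:33857472-33857721, plus strand), Slc22a26 (chr19:7802668-7802917, minus strand) and Usp17la (chr7:104856766-104857015, plus strand). Each is written 5′ to 3′ and ends at the base before the start, with the match in capitals.
A1bg: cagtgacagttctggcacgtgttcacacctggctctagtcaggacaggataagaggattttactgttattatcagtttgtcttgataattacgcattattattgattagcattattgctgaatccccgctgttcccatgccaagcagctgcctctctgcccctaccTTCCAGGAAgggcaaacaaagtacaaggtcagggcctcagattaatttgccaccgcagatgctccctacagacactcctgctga
Sult3a1: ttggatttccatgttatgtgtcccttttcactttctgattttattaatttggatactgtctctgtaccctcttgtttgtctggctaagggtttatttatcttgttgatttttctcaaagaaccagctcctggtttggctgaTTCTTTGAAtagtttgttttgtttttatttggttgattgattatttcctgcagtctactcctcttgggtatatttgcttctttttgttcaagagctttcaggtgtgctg
Slc22a26: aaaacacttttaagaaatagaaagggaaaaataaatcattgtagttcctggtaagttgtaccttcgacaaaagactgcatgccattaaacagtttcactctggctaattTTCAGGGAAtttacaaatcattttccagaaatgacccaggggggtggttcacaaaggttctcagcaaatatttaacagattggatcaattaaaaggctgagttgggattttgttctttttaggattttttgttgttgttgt
Usp17la: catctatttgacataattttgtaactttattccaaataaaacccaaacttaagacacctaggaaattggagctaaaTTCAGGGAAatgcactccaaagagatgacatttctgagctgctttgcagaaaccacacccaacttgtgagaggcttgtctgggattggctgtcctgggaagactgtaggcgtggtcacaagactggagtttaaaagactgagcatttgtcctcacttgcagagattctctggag
The matches begin 84, 109, 141 and 174 bases before the start, and Slc22a26 and Usp17la hold the same 9 letters. The 3 female-higher genes also held the HNF6 core, 150, 74 and 58 bases before the start, and Slc22a26 held AGAACA at 31. None of these matches overlapped another.

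Cytochrome P450s of families 1 to 4, the main oxidases of steroids, fatty acids and drugs, differed in both directions. Of 58 tested, 7 were higher in females and 4 in males, and the median difference was 0.02. Over all members, 0.649% were higher in females and 1.3% in males. These shares also stand beside the counts of the later lists. Cyp2b9, a female-biased steroid and drug hydroxylase, gave 95450, 92800 and 84690 in females and 11000, 2001 and 1925 in males (difference 4.70, SE 0.53, adjusted p = 0.00103). Cyp2b13, its near neighbour in sequence, gave 29000, 28540 and 29520 in females and 2094, 688 and 610 in males (difference 4.92, SE 0.39, adjusted p = 1.13e-04). The females were within a narrow band for both genes and the males were not. Cyp2b10, the P450 induced through the receptor CAR, differed by 2.40 (SE 0.26, adjusted p = 6.98e-04) and Cyp2c40 by 1.72 (SE 0.23, adjusted p = 0.00323).

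On the male-higher side, Cyp4a12a, a fatty acid hydroxylase of male liver and kidney, gave 16080, 15300 and 20030 in males and 4195, 5877 and 3307 in females (difference -1.97, SE 0.22, adjusted p = 8.16e-04). Cyp2u1 differed by -1.89 (SE 0.28, adjusted p = 0.00608), Cyp2d9 by -0.84 (SE 0.11, adjusted p = 0.00230) and Cyp2j9 by -0.82 (SE 0.15, adjusted p = 0.0197). The call of Cyp2j9 was kept in 2 of 6 fits that left out an array, with an adjusted p of up to 0.0893 without male replicate 3. Genes of these families have close copies, so a probe may read more than the gene it is named for.

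The size of some P450 differences depended on the probe. Each gene was read from its brightest probe over the 12 arrays. For Cyp4a12a that probe differed by -1.97, while the other gave 75100, 67500 and 85900 in males and 140, 290 and 124 in females, a difference of -8.79. For Cyp2b13 the probe used differed by 4.92 and the other by 9.61. The shifts were smaller for Cyp2c40 (1.72 and 2.33), Cyp2b10 (2.40 and 2.97) and Cyp2b9 (4.70 and 4.86). The first 30 of the 60 bases of the Cyp4a12a and Cyp2b13 probes are printed as deposited. They were not aligned to transcripts, so the part of the transcript that each probe reads is not given.
Cyp4a12a, probe used: ctgtcacctttccagatggacgttctttac
Cyp4a12a, other probe: ttcaaattctccacctatcagcttacgttt
Cyp2b13, probe used: cacaggaaagcgcatttgtcttggtgaaag
Cyp2b13, other probe: agagctgctggaaactagactgtatgttgc
The 4 probes shared the sign within each gene. Of the 88 called genes with more than 1 probe, 11 had probes of both signs.

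Enzymes of conjugation and oxidation outside the P450s followed. Of 14 sulfotransferase genes tested, 3 were higher in females and 0 in males, the third being Sult1d1, which sulfates catecholamines, with a difference of 1.20 (SE 0.18, adjusted p = 0.00682). Among flavin monooxygenases, Fmo2 gave 772, 765 and 725 in females and 119, 130 and 165 in males (difference 2.46, SE 0.22, adjusted p = 2.59e-04). Fmo1 differed by 1.09 (adjusted p = 0.0277) and the carboxylesterase Ces2b by -1.36 (adjusted p = 0.0409); the calls of Fmo1 and Ces2b were kept in 3 and 0 of the 6 fits that left out an array, with adjusted p-values of up to 0.125 and 0.159 without male replicate 2. With slide as a block the adjusted p of Ces2b was 0.0638.

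Among 22 glutathione S-transferases, Gstp1 was higher in males at 382700, 349300 and 350900 against 139700, 144700 and 108900 in females (difference -1.47, SE 0.15, adjusted p = 4.75e-04). Gstt3 was higher in females by 1.53 (SE 0.24, adjusted p = 0.00798), and the other 20 were not called. Of 14 genes of glucuronidation, only Ugdh, which makes the sugar donor, was called, at -0.71 (adjusted p = 0.0298), and its call was kept in 0 of 6 fits that left out an array (adjusted p up to 0.157 without male replicate 2). Of 33 transporters, Slc22a26, Slco1a4 (2.78, SE 0.39, adjusted p = 0.00435) and the drug efflux pump Abcb1a (2.00, SE 0.23, adjusted p = 0.00110) were higher in females. Abcg2, the urate and drug efflux pump, was higher in males, at 12420, 11270 and 13370 against 4429, 5679 and 3552 in females (difference -1.46, SE 0.23, adjusted p = 0.00844).

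Bile acid and steroid enzymes gave 1 female-higher and 2 male-higher genes of 38. Cyp7b1, the oxysterol 7-alpha-hydroxylase of the alternative bile acid pathway, gave 42060, 74270 and 86560 in males and 10920, 16010 and 8740 in females (difference -2.49, SE 0.30, adjusted p = 0.00172). Cyp39a1, an oxysterol hydroxylase as well, was higher in females by 1.72 (SE 0.34, adjusted p = 0.0298), and its call was kept in 1 of 6 fits that left out an array (adjusted p up to 0.149 without male replicate 2). The 2 oxysterol hydroxylases thus differed in opposite directions.

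Lipid genes also went both ways. Of 29 genes of fatty acid and triglyceride synthesis, Pnpla3 was higher in females, and Elovl3 and the lipid droplet protein Cidec (-2.40, SE 0.25, adjusted p = 6.20e-04) were higher in males. Of 30 genes of fatty acid oxidation, the thioesterases Acot3 and Acot4 were higher in females. Acot4 differed by 1.70 (SE 0.33, adjusted p = 0.0277), and its call was kept in 1 of 6 fits that left out an array (adjusted p up to 0.141 without male replicate 2). Of 26 genes of cholesterol synthesis and uptake 0 were called by limma, while 11 had an unadjusted p of 0.05 or less and 22 had a positive sign, against 43.0% of all members. Their median difference was 0.54.

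The liver makes most plasma proteins, among them complement and clotting factors. Of 46 complement and coagulation genes, Cfd, C6, C8a and C9 were higher in males and 0 were higher in females. C6, a component of the membrane attack complex, gave 4643, 9763 and 10370 in males and 784, 899 and 475 in females (difference -3.48, SE 0.32, adjusted p = 2.82e-04). C8a and C9, of the same complex, differed by -1.44 (SE 0.18, adjusted p = 0.00214) and -1.44 (SE 0.24, adjusted p = 0.0135), the latter with an adjusted p of up to 0.074 without male replicate 2. Over the whole list the median difference was -0.12 and 12 of 46 signs were positive.

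Of 24 acute phase genes, Hamp2, a relative of the iron hormone hepcidin, gave 139500, 77670 and 163100 in females and 9232, 10670 and 7821 in males (difference 3.72, SE 0.32, adjusted p = 2.05e-04). Saa4 was higher in males by 0.79 on the log2 scale (-0.79, adjusted p = 0.0319), and its call was kept in 0 of 6 fits that left out an array (adjusted p up to 0.162 without male replicate 2). Among 8 major urinary proteins and other lipocalins, Mup5 was higher in males (-1.52, adjusted p = 0.00982, and 0.0536 without male replicate 2). Ptgds, the lipocalin-type prostaglandin D synthase, was higher in females (3.02, SE 0.45, adjusted p = 0.00626). Of 29 serpins, Serpina12 differed by -1.34 (SE 0.22, adjusted p = 0.00978) and Serpinb1a by 1.52 (SE 0.32, adjusted p = 0.0380), the latter kept in 1 of 6 fits that left out an array (adjusted p up to 0.141 without male replicate 3, and 0.0523 with slide as a block).

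Growth hormone reaches these genes through a short chain of receptors, kinases and transcription factors. Of 41 genes of growth hormone signalling and of regulators of the sex pattern, 1 was called, the nuclear receptor cofactor Trim24, which gave 10790, 13440 and 12390 in females and 5210, 4434 and 4709 in males (difference 1.35, SE 0.20, adjusted p = 0.00626). At an unadjusted p of 0.05, 11 of the 41 passed, against 13.8% of all members, and the median difference was 0.13. Cux2 gave 1003, 386 and 771 in females and 121, 14.4 and 6.47 in males. Its arrays did not overlap and 2 of 3 male arrays detected it, but the difference of 4.90 had a wide error (SE 1.15, adjusted p = 0.0623). The adjusted p was 0.0173 without male replicate 1 and 0.0957 to 0.238 with any other PBS array left out. The other Cux2 probe gave 885, 1970 and 622 in females and 25.3, 5.25 and 7.45 in males. That probe differed by 6.69, with 1 of 3 male arrays above background.

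Bcl6 gave 3827, 36490 and 6651 in males and 10050, 3778 and 10360 in females. Male replicate 2 stood far above the other 5 arrays, and the difference was -0.41 (SE 0.85, adjusted p = 0.882). The growth hormone receptor Ghr gave 56470, 52200 and 54110 in males and 50210, 44870 and 43380 in females (difference -0.24, SE 0.15, adjusted p = 0.553). Stat5b differed by 0.17 (SE 0.18, adjusted p = 0.736) and the glucocorticoid receptor Nr3c1 by 0.27 (SE 0.21, adjusted p = 0.623).

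Of 9 sex hormone and prolactin receptor genes that were members, Prlr, the prolactin receptor, was called, with 6632, 6365 and 6028 in females and 1975, 1251 and 1111 in males (difference 2.18, SE 0.38, adjusted p = 0.0146). Its adjusted p was 0.0779 without male replicate 2 and 0.0735 without male replicate 3. The estrogen receptor Esr1 gave 3145, 1972 and 4282 in females and 877, 950 and 606 in males. The arrays did not overlap, but the difference of 1.91 (SE 0.56) missed the threshold (adjusted p = 0.136). That p belongs to the brighter Esr1 probe. The other Esr1 probe was dimmer but above background on all 3 arrays of each sex. It gave 85.1, 73.4 and 89.9 in females and 19.1, 17.8 and 24.3 in males, a difference of 2.03 with a narrower spread. The missed threshold is thus a result of the probe used and does not show that Esr1 was equal. The androgen receptor gene lies on the X chromosome and was no member.

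Genes regulated by the glucocorticoid receptor in liver include enzymes of amino acid breakdown and glucose production. Of 26 such targets tested, limma called 0 (1.95% of all members were called), 6 had an unadjusted p of 0.05 or less, and the lowest adjusted p was 0.0797. Their median difference was -0.26 and 7 had a positive sign. Of 18 circadian clock genes 0 were called, with 4 at an unadjusted p of 0.05 or less, and of 28 genes of DNA replication and mitosis 0 were called, with 8. Over all members 13.8% had such a p. A p that misses the threshold does not show that these genes were equal.

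Genes listed from general knowledge as sex-biased in mouse liver kept their direction where they were called. The 2 lists were written with earlier results of these data known, so they are no independent check. Of 48 female-biased genes tested, 22 were higher in females and 0 in males, with a median of 1.63 and 44 positive signs. Of 31 male-biased genes, 13 were higher in males and 0 in females, with a median of -0.999 and 3 positive signs. The members of these lists that missed the threshold include Cux2.

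Markers of other cell types were set beside these counts, since in bulk liver fewer cells of a type and less RNA per cell cannot be told apart. All 12 Kupffer cell and macrophage markers tested had a positive sign, with a median of 0.69, yet limma called 0 and 3 had an unadjusted p of 0.05 or less. Their summed signal was 61290 to 96080 in males and 88880 to 139700 in females. Of 33 interferon-induced genes 30 had a positive sign, and the guanylate-binding proteins Gbp2 (0.88, adjusted p = 0.0301) and Gbp3 (1.16, adjusted p = 0.0122) were higher in females. The calls were kept in 2 and 4 of the 6 fits that left out an array, with adjusted p-values of up to 0.124 for Gbp2 (without male replicate 3) and 0.0693 for Gbp3 (without male replicate 2). The part of macrophage content in the female-higher genes was not tested. Of 12 endothelial, 12 stellate cell, 10 B cell and 5 neutrophil markers 0 were called, with 0, 0, 1 and 0 at an unadjusted p of 0.05 or less. Over all members, 1.95% were called and 13.8% had such a p. Of 15 T and NK cell and 12 MHC class II markers limma also called 0, with 8 and 6 at an unadjusted p of 0.05 or less and medians of 0.66 and 0.53. Prom1, a membrane protein of bile duct cells, was the only 1 of 8 cholangiocyte markers called, higher in females by 3.64 (adjusted p = 0.0179). Myh2, a skeletal muscle myosin, was the only 1 of 6 muscle markers called, higher in males (-3.19, adjusted p = 0.00844). Ckm, Myh4, Pvalb and Actn3 were not above background on all 3 PBS arrays of either sex.

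**Figure D4:**
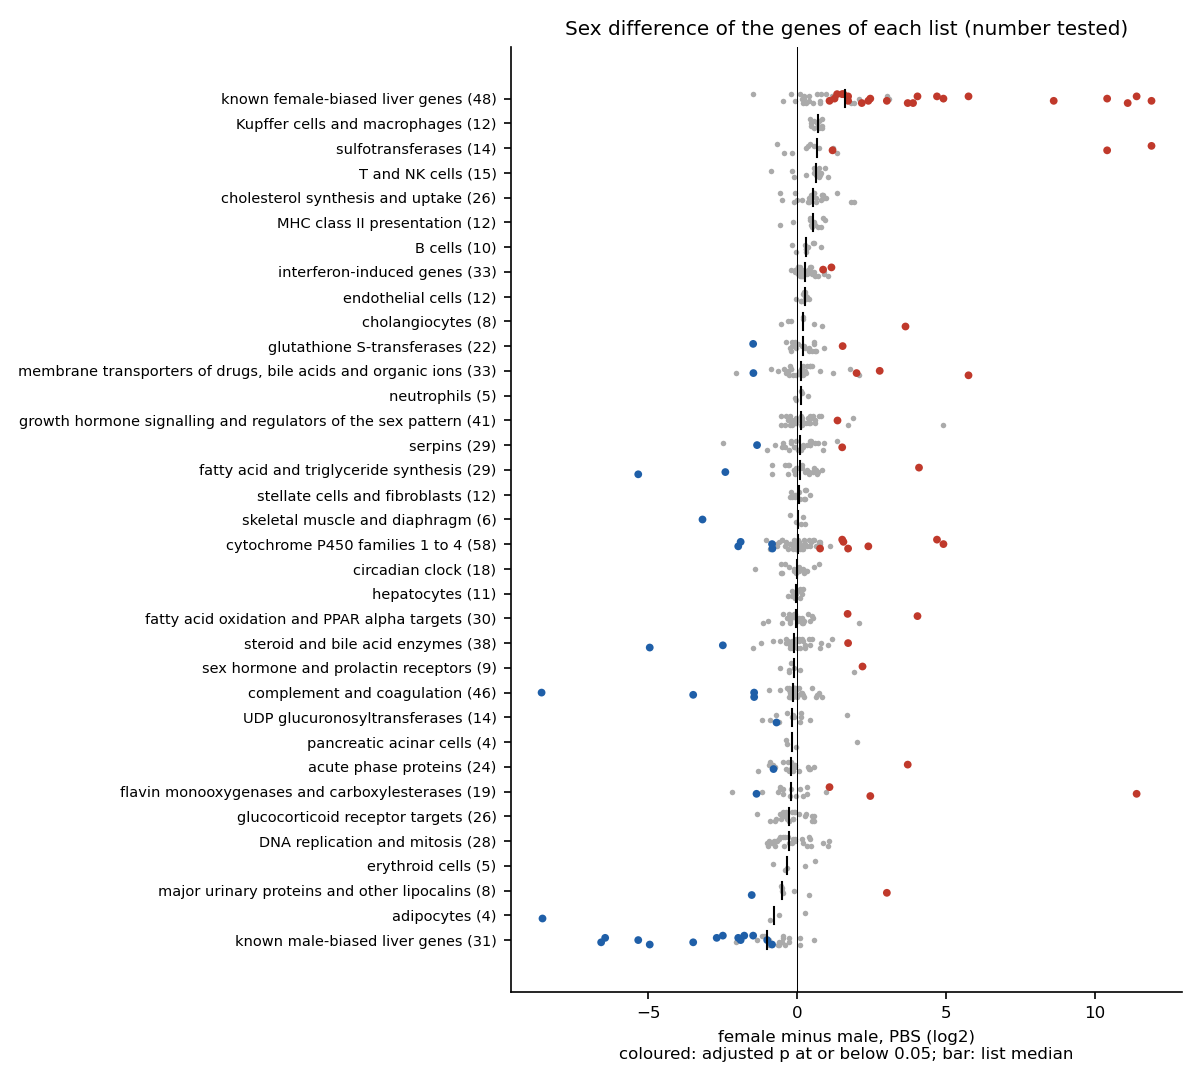
Sex difference (horizontal axis, log2, female minus male) of every tested gene of each list (vertical axis, number tested in parentheses), with genes called higher in females in red, higher in males in blue, not called in grey, and the list median as a black bar. The 2 lists of known sex-biased genes, written with earlier results of these data known, have the highest and the lowest median, 1.63 and -0.999.

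Called genes were spread over all 19 autosomes, from 1.11% of members called on chromosome 11 to 3.43% on chromosome 15. Of the 280 called genes with a symbol, 41 lay within 100 kb of another, in 19 groups. The share to be found among equally many members taken at random was not computed. The genes of 7 groups were all higher in females, those of 8 all higher in males, and 4 groups held both directions. Only 1 group had 4 genes, on chromosome 14 between 60890159 and 61014095 (mm7), where Adam2, Ephx2, Chrna2 and Ptk2b were all higher in males with differences of -1.42, -0.62, -1.39 and -2.01. Ephx2, the soluble epoxide hydrolase, gave 189800, 204600 and 211500 in males and 135200, 137000 and 122900 in females.

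The sex differences were looked for again in the dexamethasone livers, which share no array with the PBS livers. Both comparisons used the same pooled estimate of the spread, so the SE of a gene was the same under both treatments. A call under PBS favours genes with a small SE, and these are also easier to call under dexamethasone. The shared calls given below are therefore no independent repeat. Under dexamethasone the male arrays sat on slides 3, 1 and 3, in positions 2, 2 and 3. The female arrays sat on slides 2, 1 and 2, in positions 3, 4 and 4. Sex therefore cannot be fully told apart from slide or position under dexamethasone, which also limits the test of a change below. The share of spots well above background was 65.7 to 69.6% in dexamethasone males and 72.0 to 72.2% in dexamethasone females. The part of this difference in the counts was not tested. Between dexamethasone females and males, 3.3% of the members were higher in females and 2.47% higher in males. Of the 349 genes, 243 (69.6%) were called there in the same direction, 90 higher in females and 153 higher in males, and 0 were called in the opposite one. These 243 are 23.5% of all genes called under dexamethasone. The sign was the same at 344 of the 349 (98.6%), against 71.6% of all members. The 5 others, chosen after their values were seen, were 2700038G22Rik, Cyp2c70, Tiam1, Bdnf and a transcript without a symbol, and none was called under dexamethasone. With slide as a block 142 of the 393 genes called under PBS were shared (36.1%), with normexp background correction 40 of 84 (47.6%), and without male replicate 2 110 of 142 (77.5%).

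Single genes are given with both values. Sult2a2, A1bg and Hao2 were above background on all 3 dexamethasone females and on 0, 1 and 0 of the 3 dexamethasone males, so their sizes under the 2 treatments are not compared. Among genes detected on all 12 arrays, Slc22a26 differed by 7.32 under dexamethasone, next to 5.76 under PBS, and Hamp2 by 3.98, next to 3.72. Asns differed by -5.01, next to -3.43, and Nat8 by -4.01, next to -3.62. Cyp2b9 differed by 1.43 under dexamethasone (adjusted p = 0.145) and Cyp2b13 by 1.56 (adjusted p = 0.0423), next to 4.70 and 4.92 under PBS. Trim24 differed by 0.22 (adjusted p = 0.542), Treh, detected on 2 of 3 PBS females, by -0.85 (adjusted p = 0.488) and Cyp2u1 by -0.26 (adjusted p = 0.618), next to 1.35, -3.69 and -1.89.

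A change of the sex difference with dexamethasone was tested directly, and limma called 0 of the 17882 members (0%). The lowest adjusted p was 0.214, for Cyp2b13, with a change of -3.36 (SE 0.55), and 935 members (5.23%) had an unadjusted p of 0.05 or less. Of the 349 genes, 68 had such a p and 211 had a smaller difference under dexamethasone than under PBS. These genes were chosen by their PBS difference, and the same PBS values enter the test of a change. Smaller differences in other animals and more small p-values can follow from that choice alone, so neither number shows a change. As limma called 0 members, a call under PBS that was missing under dexamethasone is not shown to be a change. Without a filter on dim probes the count of genes called for a change was 2089.

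**Figure D5:**
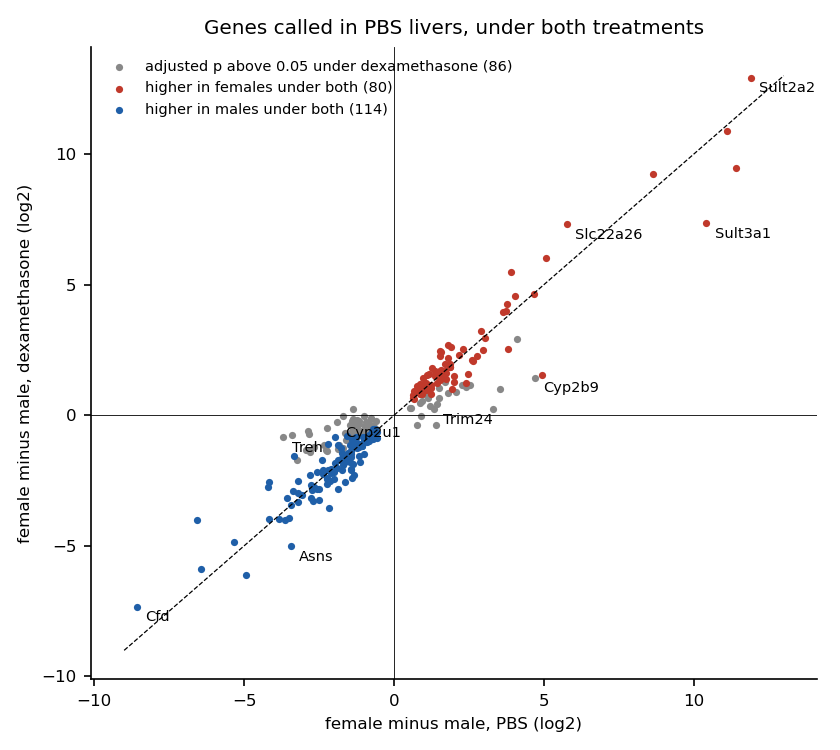
Sex difference (log2, female minus male) under dexamethasone (vertical axis) against that under PBS (horizontal axis) for the 280 genes called under PBS that have a symbol; red and blue points were called in the same direction under both, grey points were not called under dexamethasone, and the dashed line marks equal values. Cyp2b9 lies below the line (1.43 against 4.70) and Asns lies further out in males under dexamethasone (-5.01 against -3.43).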

How the data were processed

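Total liver RNA of 12 adrenalectomized mice (4 groups of 3) was hybridised to 1-colour Agilent arrays, 1 animal per array. The values are processed signal intensities that the authors deposited, read with Agilent Feature Extraction 9.5 per the submitters' processing notes and background-subtracted per the file headers. They carry no normalization between arrays. The same intensities form the deposited series table.

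Control spots (1639 per array) and spots with outlier flags were left out, spots of 1 probe were averaged, log2 was taken and the 75th percentile of each array was subtracted. A gene was read from its brightest probe. Genes entered the fit when a group had all 3 of its arrays above background for that probe. limma 3.58.1 (R 4.3.3) fitted 4 group means over the 12 arrays (8 residual degrees of freedom), which share 1 estimate of the spread, with Benjamini-Hochberg adjustment over 19340 genes. The number of arrays limits the precision. The fit was tested on simulated data.

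Of 41174 probes, 22951 were named by accession, 6659 by symbol and 3109 by synonym through the RefSeq gene table, and 8455 kept the name in the file. Probe positions are those of the array design (mm7); promoters come from RefSeq (GRCm38.p6) and were not used with mm7 positions.

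Named genes are the 15 largest called genes in each direction, up to 4 called genes per direction in each list, the called members of the growth hormone and receptor lists with their main receptors and regulators, and neighbours in groups of 4 or more; 1 gene that the rule names is not reported here. The members, lists and rules were chosen with earlier results of these data known. Alternatives varied the arrays fitted, slide, replicate number, scaling, background, filter, probe rule and array weights.

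The labels give the sexes the same replicate numbers. Same-numbered female and male PBS arrays deviated together with correlations of 0.08, -0.22 and -0.15, so the numbers were not treated as pairs.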

Additional observations from a re-analysis of the deposited data

How the results depend on the processing

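The main counts were 116 female-higher and 233 male-higher genes (92 and 190 at 2-fold or more) and 243 shared with the dexamethasone livers. Slide as a block, quantile and median scaling, no background subtraction, the mean of a gene's probes, no filter on dim probes and a filter on all 6 PBS arrays left the first 4 counts within 1.5 times; slide as a block took the shared count to 142. The fit with the replicate number as a block gave 77 and 145, with 160 shared. The 6 PBS arrays alone gave 79 female-higher and 122 male-higher genes (70 and 115 at 2-fold or more) and kept 169 of the 349 calls. With slide as a block, chosen after seeing the data, these 6 arrays gave 38 and 92 (38 and 92 at 2-fold or more). Array weights gave 282 and 408, with 150 female-higher at 2-fold or more and 433 shared. Normexp background correction gave 44 and 40 (43 and 40 at 2-fold or more) and 40 shared.

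Leaving out 1 PBS array gave 47 to 118 female-higher and 95 to 205 male-higher genes, 45 to 104 and 94 to 179 at 2-fold or more, and 110 to 226 shared. The count whose sex difference changed with dexamethasone was 0, but 1 with array weights, 1 without background subtraction, 2089 without a filter on dim probes and from 0 to 2 with an array left out. Of 62 named genes that were called, 42 kept the call with each of the 6 arrays left out in turn. Of the 349 called genes, 1 turned its sign with normexp correction and 1 with the filter on all 6 PBS arrays, neither among the named genes. Of the named genes the sign turned for 2 that were not called: Stat5b was -0.11 with the mean of its probes, and Bcl6 ranged from -1.09 to 0.54 with an array left out (0.06 without female replicate 2). The causes of these changes were not tested. Normexp correction ended the call of 25 of the 62 named genes that were called.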
